A study of Mus musculus with 12 samples.

Results

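The proteasome is the large protease of the cytosol and nucleus that breaks down proteins tagged with ubiquitin. Its genes were taken as every gene whose symbol is Psma, Psmb, Psmc or Psmd followed only by digits, and for a gene with several probe sets the one brightest on average was used. The rule found 37 genes with 58 probe sets, of 17097 genes with a probe set of their own and 45141 probe sets in all. They lie on 15 chromosomes. The expression filter passed 35 of them, and Psma8, a germ cell form of an alpha subunit, and Psmb11, a thymic form of a beta subunit, did not pass it. Psmc6 and Psmd10 were not analysed here.

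Expression was measured on 12 Affymetrix mouse arrays, with liver and brain each kept in both of 2 ways and sampled at 3 times after death. The animals were BALB/c males, 10 weeks old, with no other treatment or allele named in the labels. FFPE tissue was fixed in 10% formalin for 24 h, embedded in paraffin and kept 7 d as blocks before 10 µm sections were cut, and its RNA was labelled with a whole-transcript amplification kit. FF tissue was placed in RNAlater and frozen, and its RNA went through a 3' in vitro transcription labelling kit. Each tissue and preservation had 1 array for tissue taken at 0 h, 1 after 3 h at room temperature and 1 after 18 h at 4 °C. Preservation therefore cannot be told apart from the labelling kit, nor time from storage temperature. The labels give neither the number of animals nor which arrays share one, so p-values measure only the spread between these arrays.

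As background, the proteasome has a barrel-shaped core particle, built of outer rings of alpha subunits (Psma) and inner rings of beta subunits (Psmb), and a regulatory particle that caps it. The beta subunits Psmb5, Psmb6 and Psmb7 carry the chymotrypsin-like, caspase-like and trypsin-like activities. In immune cells and under interferon they are replaced by Psmb8, Psmb9 and Psmb10, the immunoproteasome, which favours peptides suited to presentation on MHC class I. The base of the cap holds a ring of ATPases (Psmc) that unfold substrates, with the scaffold subunits Psmd1 and Psmd2 and the ubiquitin receptor Psmd4. The lid holds Psmd3, Psmd6, Psmd7, Psmd8, Psmd11, Psmd12, Psmd13 and Psmd14, the last a deubiquitinase, while Psmd5 and Psmd9 are chaperones that help to assemble the base. Liver is rich in resident macrophages and endothelium that express immunoproteasome genes.

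The labelled tissues carried their own markers. A list of 10 hepatocyte genes averaged 11.96 to 12.31 in the liver arrays and 5.29 to 6.77 in the brain arrays, on the log2 intensity scale used for every level below. In the hepatocyte list the FF brain 0 h array was the highest of the brain arrays, at 6.77 against 5.29 to 5.52 in the others. The main counts of proteasome genes that use this array are therefore also given without it. The differences of single genes and marker lists, and the tissue difference in the 3 h change, are given with it only. Ttr, on the same list, measured 8.68, 12.72 and 12.21 at 0, 3 and 18 h in FF brain and 5.77, 12.52 and 12.03 in FFPE brain. It thus raised the list average of the later brain arrays. The 0 h brain arrays differed from the later ones in this gene, and the part of this in the brain comparisons was not tested. RNA quality marks differed between arrays. The gap between the 3' and 5' probe sets of Gapdh, a log2 difference, was 1.04, 1.63 and 1.77 at 0, 3 and 18 h in FFPE liver and 0.03, 0.82 and 1.14 in FF liver. It was 1.22, 1.25 and 1.22 in FFPE brain and -0.02, 0.0 and 0.05 in FF brain. The same gap of Actb was -0.12, -0.01 and -0.18 in FFPE liver and 1.09, 2.0 and 1.9 in FF liver, so that it was wider after 0 h in FF liver and not in FFPE liver.

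Liver at 18 h had lower proteasome subunit expression than liver at 0 h across most of the complex. Of the 35 genes tested, 19 fell and 0 rose at an adjusted p of at most 0.05 (limma, two-sided, Benjamini-Hochberg over 13074 genes), against 10.9% of all genes tested that fell and 3.61% that rose. The median difference of the 35 was -0.60 on the log2 scale, on which 1 is a 2-fold difference, and the median of all genes was -0.02. At an unadjusted p of 0.05, 27 of the 35 passed, and the share of all genes at that cutoff is not given here. The 19 fall into 5 of 7 alpha subunits, 4 of 7 beta subunits, 2 of 3 immunoproteasome subunits, 1 of 5 ATPases, 0 of 3 other base subunits, 5 of 8 lid subunits and both Psmd-named chaperones. Class medians were -0.55 for alpha, -0.61 for beta, -0.82 for immunoproteasome, -0.44 for ATPase, -0.49 for other base, -0.90 for lid and -1.21 for chaperone genes. The Gapdh gap was wider at 18 h than at 0 h in both preservations of liver and the Actb gap in FF liver alone, and the part of RNA quality in the result was not tested. In whole tissue, fewer cells of a type and less RNA per cell cannot be told apart.

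**Figure D1:**
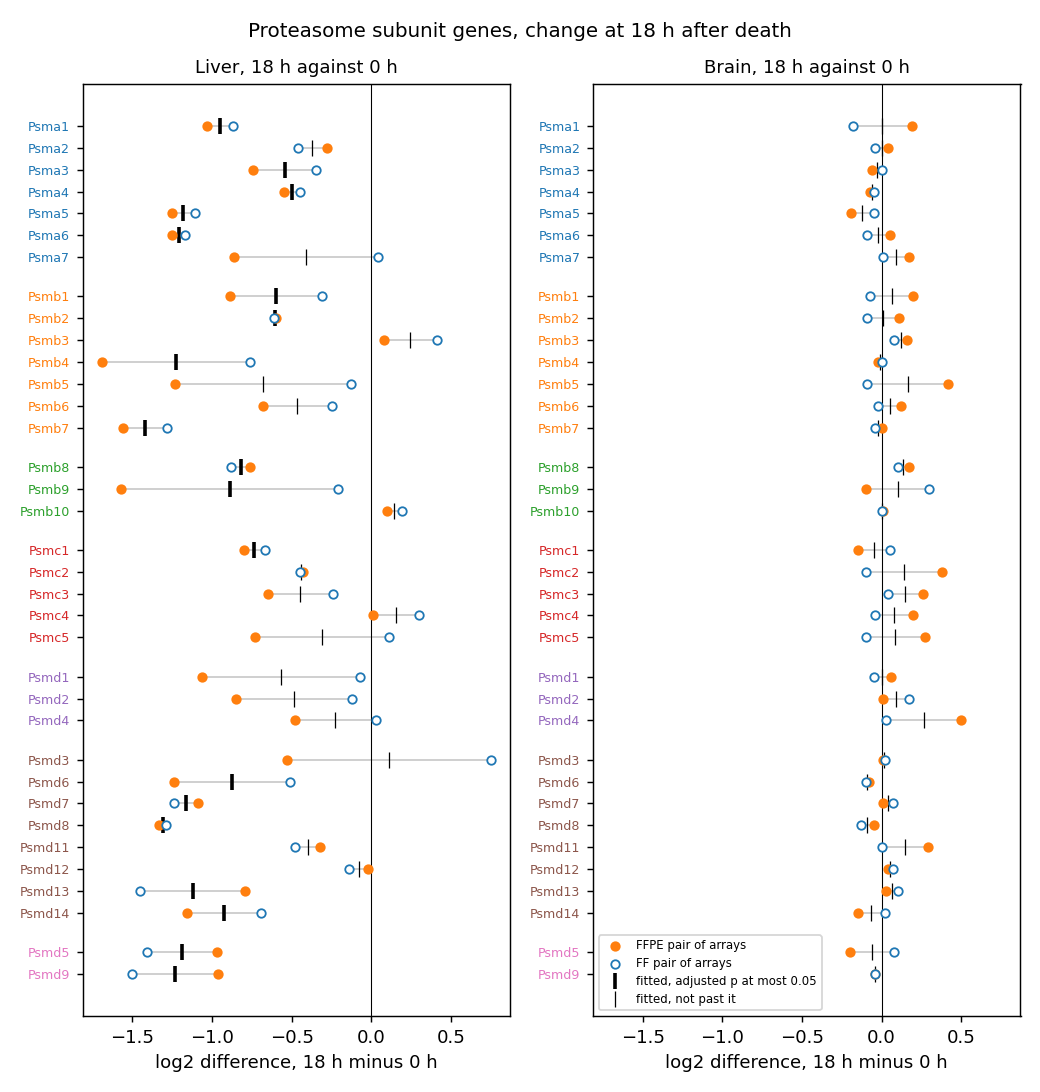
Each row is 1 proteasome gene, and the horizontal axis gives its log2 difference, 18 h minus 0 h, in liver on the left and in brain on the right. Filled points are the FFPE pair of arrays, open points the FF pair, and the tick is the fitted value, thick where the adjusted p is at most 0.05. In liver 19 ticks are thick and all lie below 0, while in brain every fitted value lies between -0.12 and 0.27.

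Among the alpha subunits, which form the gated outer rings, Psma6 and Psma5 showed the difference in both preservations. Psma6 measured 9.98, 9.63 and 8.73 in FFPE liver at 0, 3 and 18 h, and 10.05, 9.82 and 8.88 in FF liver. Both 18 h arrays were thus below all 4 earlier liver arrays, and the fitted difference was -1.21 ± 0.13 (SE, 2 arrays at each time; adjusted p = 0.000187). Psma5 measured 8.81, 8.50 and 7.56 in FFPE liver and 9.05, 8.92 and 7.94 in FF liver, again with no overlap between 18 h and the earlier times, and fell by 1.18 (adjusted p = 0.000225). Psma1 (-0.95), Psma3 (-0.55) and Psma4 (-0.50) also fell. Psma2 stood at -0.37 and missed the threshold (adjusted p = 0.109). Psma7 was at -0.86 in the FFPE pair and 0.04 in the FF pair, and its fitted -0.41 did not pass. Psma8, the germ cell form, lay between 4.42 and 5.17 in all 6 liver arrays, around the array medians of 4.65 to 4.85.

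Among the beta subunits the trypsin-like catalytic Psmb7 had the largest difference of all 35 genes. It measured 10.17, 9.58 and 8.61 in FFPE liver at 0, 3 and 18 h, and 8.21, 7.87 and 6.93 in FF liver. The order 0 h, 3 h, 18 h was the same in both preservations, with the 18 h array lowest, and the fitted difference was -1.42 ± 0.14 (SE; adjusted p = 0.000107). The other catalytic subunits were less even between preservations. Psmb5, the chymotrypsin-like subunit, measured 8.54, 8.23 and 7.31 in FFPE liver and 9.20, 9.12 and 9.07 in FF liver. Its pair differences of -1.23 in FFPE and -0.13 in FF gave a fitted -0.68 that missed the threshold (adjusted p = 0.0627), though it passed without the FF liver 18 h array (adjusted p = 0.00226) or without the FF liver 0 h array (adjusted p = 0.0342). Psmb6, the caspase-like subunit, was at -0.68 in FFPE and -0.25 in FF and did not pass. Of the structural beta subunits, Psmb4 fell by 1.23, from differences of -1.69 in FFPE and -0.76 in FF (adjusted p = 0.00113). Psmb2 (-0.61) and Psmb1 (-0.60) also fell, and Psmb3 stood at 0.25 and did not pass.

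In the base of the regulatory particle Psmc1 was the 1 gene that passed, and the difference from the other classes was not tested. This ATPase gene measured 9.38, 8.88 and 8.58 in FFPE liver at 0, 3 and 18 h and 8.85, 8.63 and 8.18 in FF liver, and fell by 0.74 (adjusted p = 0.0043). Psmc2, Psmc3, Psmc4 and Psmc5 did not pass. Psmc4 was at 0.16, and Psmc5 was at -0.73 in the FFPE pair against 0.11 in the FF pair. The scaffold subunit Psmd1 likewise stood at -1.06 in FFPE and -0.07 in FF, and Psmd2 at -0.85 and -0.12. Both scaffold genes passed without the FF liver 18 h array (adjusted p = 0.00663 for Psmd1 and 0.00974 for Psmd2) or without the FF liver 0 h array (0.0174 and 0.0382), and Psmc3 (0.0175) and Psmc5 (0.0178) passed without the FF liver 18 h array.

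The lid held the second largest fall. Psmd8 measured 9.29, 8.90 and 7.96 in FFPE liver at 0, 3 and 18 h and 10.09, 9.56 and 8.80 in FF liver, so that the 18 h array was lowest in each preservation. Its difference was -1.31 ± 0.14 (SE; adjusted p = 0.00018), with pair values of -1.33 in FFPE and -1.29 in FF. Psmd7 fell by 1.17, Psmd13 by 1.12 and Psmd14, the deubiquitinase that removes ubiquitin chains from substrates, by 0.93. Psmd14 measured 8.92, 8.77 and 7.76 in FFPE liver and 8.86, 8.70 and 8.17 in FF liver. Psmd6 fell by 0.88. Psmd11 (-0.40) and Psmd12 (-0.08) did not pass, and Psmd3 went opposite ways, with -0.53 in the FFPE pair and 0.75 in the FF pair. Both assembly chaperones fell, with the FF pair showing the larger difference. Psmd9 measured 7.38, 6.98 and 6.42 in FFPE liver and 7.76, 6.94 and 6.26 in FF liver (difference -1.23, adjusted p = 0.000556), and Psmd5 measured 7.83, 7.49 and 6.86 in FFPE liver and 8.01, 7.88 and 6.60 in FF liver (difference -1.19, adjusted p = 0.000681).

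The immunoproteasome genes did not move as a unit in liver. Psmb8, the counterpart of Psmb5, measured 7.19, 7.37 and 6.43 in FFPE liver at 0, 3 and 18 h, and 8.60, 8.45 and 7.72 in FF liver. Within each preservation the 18 h array was lowest, and the fitted difference was -0.82 ± 0.14 (SE; adjusted p = 0.00222). Psmb9, the counterpart of Psmb6, measured 7.92, 7.65 and 6.35 in FFPE liver and 7.70, 7.78 and 7.49 in FF liver. Its fall of 0.89 (adjusted p = 0.0311) came from a difference of -1.57 in FFPE and -0.21 in FF, and it did not pass without the FFPE liver 18 h array (-0.30, adjusted p = 0.357) or without the FFPE liver 0 h array (-0.46, adjusted p = 0.358). Psmb10, the counterpart of Psmb7, did not pass, at 7.64, 7.65 and 7.74 in FFPE liver and 7.75, 7.87 and 7.94 in FF liver (difference 0.15). Psmb7 and its counterpart Psmb10 thus stood apart, at -1.42 and 0.15. Markers of other liver cells stood beside these values as follows, with counts to be read against 10.9% of all genes tested that fell and 3.61% that rose. The 6 Kupffer cell genes averaged 6.78, 5.57 and 6.18 at 0, 3 and 18 h in FFPE liver and 6.97, 6.18 and 6.96 in FF liver, with 1 of 5 tested lower and 0 higher at 18 h. The 6 T and B lymphocyte genes averaged 4.53, 4.49 and 4.76 in FFPE liver and 5.01, 4.87 and 5.16 in FF liver, with 0 of 6 past the threshold. The 6 sinusoidal endothelium genes averaged 6.5, 6.09 and 6.74 in FFPE liver and 7.15, 6.70 and 7.71 in FF liver, and 2 of 5 tested, Stab1 (0.59) and Kdr (0.47), were higher at 18 h with 0 lower. The 3 erythroid genes averaged 9.86, 10.89 and 10.47 in FFPE liver and 10.37, 11.22 and 11.04 in FF liver, with the globin genes Hbb-b2 (1.12) and Hba-a1 (1.10) higher at 18 h. The part of these cells in the result was not tested.

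The preservations gave different sizes for the 18 h difference in liver. The median over the 35 genes was -0.80 in the FFPE pair of arrays and -0.45 in the FF pair, and the FFPE value was the lower one in 25 genes. At least 2-fold lower at 18 h were 12 genes in the FFPE pair and 8 in the FF pair, while 28 genes were below 0 in both. The shares of all genes for these counts are not given here, so how far they exceed the rest of the array is not shown. Across the 35 genes the FFPE and FF pair differences had a Pearson r of 0.551, and across all genes tested r was 0.473. These points share the same arrays and are not independent. With each array left out in turn, 14 to 26 of the 35 genes passed, and 12 of the 19 passed in all 12 such fits: Psma1, Psma5, Psma6, Psmb4, Psmb7, Psmb8, Psmd5, Psmd7, Psmd8, Psmd9, Psmd13 and Psmd14. Without the FFPE liver 0 h array, Psma3, Psma4, Psmb1, Psmb9, Psmc1 and Psmd6 did not pass (adjusted p from 0.0542 to 0.358), and without the FF liver 0 h array Psma3, Psma4, Psmb1 and Psmb2 did not (0.0509 to 0.151). Psma3, Psma4, Psmb1 and Psmb9 did not pass without the FFPE liver 18 h array either (0.129 to 0.357), and Psma4, Psmb1 and Psmb9 also lost the threshold without single brain arrays (0.05 to 0.0549, just above it).

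The choice of probe set mattered for some genes. Of the 37 genes, 24 had 1 probe set, and 9 had at least 2 that passed the filter. Psmb3 was at 0.25 by its brighter probe set, but its other probe set fell by 0.97 (adjusted p = 0.0102), with -1.45 in FFPE and -0.49 in FF. The other probe set of Psma7 fell by 0.73 (adjusted p = 0.00703), where the brighter one was at -0.41. For Psmd4, the ubiquitin receptor, the 3 probe sets gave -0.23, -0.90 (adjusted p = 0.00461) and 0.15. In the opposite direction, second probe sets of Psmd7 (0.23), Psmd9 (-0.04) and Psmb9 (-0.08 and 0.09) did not pass where the brighter one did. When all probe sets past the filter were fitted separately, 23 of 48 passed, all of them lower at 18 h.

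**Figure D2:**
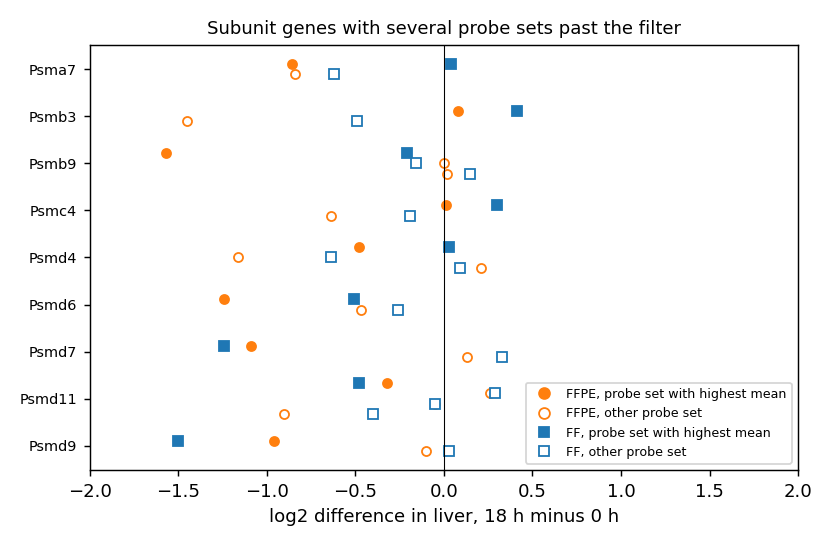
The horizontal axis gives the log2 difference in liver, 18 h minus 0 h, for the 9 proteasome genes with at least 2 probe sets past the filter. Filled symbols are the brightest probe set and open symbols the others, circles for the FFPE pair and squares for the FF pair. The probe sets of Psmb3, Psmd7 and Psmd9 lie far apart, as do those of Psmb9 and Psmd4 in FFPE, and those of Psma7 agree in FFPE but not in FF.

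No gene passed at the earlier time. At 3 h against 0 h in liver, 0 of the 35 genes passed in the limma fit, against 0.245% of all genes tested, and 8 had an unadjusted p under 0.05. The fit with a robust spread also gave 0. The median was -0.17, against -0.005 for all genes, and 23 genes were below 0 in both preservations. The shares of all genes at the unadjusted p, and below 0 in both preservations, are not given here. Psmd7, a lid subunit, came nearest (-0.53, adjusted p = 0.185). Its 3 h array read 6.98 in FFPE liver, against 7.46 for the 0 h array, and 7.43 in FF liver, against 8.01. Between 3 h and 18 h the liver values were lower again. At 18 h against 3 h, 14 of the 35 genes fell and 0 rose, against 7.58% of all genes tested that fell and 2.76% that rose, with a median of -0.49. The 14 were Psma1, Psma5, Psma6, Psmb4, Psmb7, Psmb8, Psmd2, Psmd5, Psmd6, Psmd7, Psmd8, Psmd9, Psmd13 and Psmd14, of which all but Psmd2 were also lower at 18 h than at 0 h. The 2 comparisons share the 18 h arrays. This count was 4 without the FFPE liver 3 h array and 7 without the FF liver 3 h array, and 21 without the FF liver 18 h array. With the liver arrays fitted alone it was 8.

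In brain no proteasome gene passed the test at either time. At 18 h against 0 h, 0 of the 35 genes passed, against 0.0306% of all genes tested, and 0 had an unadjusted p under 0.05. The fitted differences ran from -0.12 to 0.27 with a median of 0.02, and the lowest adjusted p was 0.995. Psmb7 showed how close the brain arrays were, with 8.71, 8.57 and 8.71 at 0, 3 and 18 h in FFPE brain and 7.44, 7.42 and 7.40 in FF brain. Psmd8 gave 7.06, 6.83 and 7.01 in FFPE brain and 9.13, 9.16 and 9.0 in FF brain. In FF brain the 18 h array was the lowest for both genes, though by little, and in FFPE brain it was the lowest for neither. At 3 h against 0 h in brain, 0 of the 35 passed, against 0.0765% of all genes tested, and 1 had an unadjusted p under 0.05, the lid gene Psmd11 (0.46, adjusted p = 0.803). Both counts were also 0 without the FF brain 0 h array, in each other fit with 1 array left out, and with a robust spread.

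The difference between the tissues was tested directly as the liver change minus the brain change. At 18 h, 12 of the 35 genes had a lower change in liver and 0 a higher one, against 3.96% of all genes tested that were lower and 0.52% that were higher, with a median of -0.62. They were Psmb7 (-1.40 ± 0.20 SE, adjusted p = 0.00389), Psmb4, Psmb8, Psma1, Psma5, Psma6, Psmd7, Psmd8, Psmd13, Psmd14, Psmd5 and Psmd9. At 3 h 0 passed, against 0.0153% of all genes tested, with 0 also under a robust spread. An unadjusted p under 0.05 was seen in 3 of the 35, with no share of all genes given here. The count at 18 h depended on single arrays. It was 0 without the FFPE brain 18 h array, 3 without the FFPE brain 0 h array, 2 without the FF brain 0 h array and 3 without the FF brain 18 h array, and it was 22 without the FF liver 18 h array. It was 4 after quantile normalization and 8 with the mean of a gene's probe sets.

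By the brightest probe set of each gene, liver and brain differed most in the inducible catalytic subunits Psmb8 and Psmb9. In FF tissue over the 3 times, Psmb9 (3.08 ± 0.20 SE) and Psmb8 (2.84 ± 0.11, adjusted p = 5.6e-11) had the largest liver excess of the 35 genes as measured. The third inducible subunit, Psmb10, did not pass (0.11, adjusted p = 0.359). The FF brain readings of Psmb9 were 4.34 to 4.76, near the array medians, so the size and rank of its excess rest on readings at that level. Among brain arrays Psmb9 reached the array median at 3 h in FF tissue alone, so it passed the expression filter through its liver arrays. Its probe set was also chosen by a mean that includes them, so its p-value is not given as support. The constitutive counterparts in FF tissue were 0.34 for Psmb6, which passed (adjusted p = 0.0352), and 0.25 for Psmb7 and -0.11 for Psmb5, which did not. Start sites of these catalytic genes are shown here because in FF tissue the inducible Psmb8 and Psmb9 differed far more between liver and brain than the constitutive Psmb5 and Psmb6 did, whose liver minus brain values in FFPE tissue were 1.20 and 1.40. The windows run from 250 bases before to 50 after the annotated start, 5′ to 3′ on the gene's strand, from RefSeq on GRCm38.p6, and 30 of the 37 genes matched such a window. The capitals mark TTCCCAGAA, a match to the gamma-interferon activated site TTCNNNGAA, in the Psmb8 window at chr17:34197945-34198244 (plus strand). In the Psmb9 window at chr17:34187281-34187580 (minus strand) they mark ATTGG, the CCAAT box read on the other strand. In the Psmb5 window at chr14:54617946-54618245 (minus strand) and the Psmb6 window at chr11:70525107-70525406 (plus strand) they mark TGACGTCGC and TGACGGAGC, matches to the antioxidant response element TGACNNNGC.
Psmb8: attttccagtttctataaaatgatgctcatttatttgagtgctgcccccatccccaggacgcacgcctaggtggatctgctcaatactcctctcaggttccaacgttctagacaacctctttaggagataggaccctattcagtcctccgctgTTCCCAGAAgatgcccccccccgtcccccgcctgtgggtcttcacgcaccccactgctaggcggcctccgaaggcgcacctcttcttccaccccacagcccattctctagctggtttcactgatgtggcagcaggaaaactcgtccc
Psmb9: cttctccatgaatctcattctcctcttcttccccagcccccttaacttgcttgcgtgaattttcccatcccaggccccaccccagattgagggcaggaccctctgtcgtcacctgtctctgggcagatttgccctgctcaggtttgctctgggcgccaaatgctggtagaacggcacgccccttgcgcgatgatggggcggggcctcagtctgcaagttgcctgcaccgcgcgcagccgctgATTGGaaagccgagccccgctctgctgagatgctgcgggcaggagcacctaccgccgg
Psmb5: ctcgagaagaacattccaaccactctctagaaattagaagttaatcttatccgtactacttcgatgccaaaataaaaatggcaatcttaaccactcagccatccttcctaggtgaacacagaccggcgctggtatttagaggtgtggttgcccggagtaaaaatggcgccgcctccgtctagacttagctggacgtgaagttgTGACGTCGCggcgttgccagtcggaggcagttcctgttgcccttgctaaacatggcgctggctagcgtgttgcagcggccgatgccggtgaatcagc
Psmb6: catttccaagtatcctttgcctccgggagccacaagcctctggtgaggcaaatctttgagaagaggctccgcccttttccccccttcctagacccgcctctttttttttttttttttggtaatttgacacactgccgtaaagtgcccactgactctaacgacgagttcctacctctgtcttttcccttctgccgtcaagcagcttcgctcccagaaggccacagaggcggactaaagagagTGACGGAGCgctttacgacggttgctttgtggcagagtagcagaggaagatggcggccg

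Each motif was searched by its letters on both strands, and a window may hold several motifs, overlapping or not. TTCNNNGAA was in 8.3% of all 32851 mouse windows and in 6.25% of the 32 windows of proteasome genes, where it was found for Psmb8 and Psmd2. TGACNNNGC was in 12.4% of all windows and 12.5% of those of the proteasome genes, for Psmb5, Psmb6, Psmd9 and Psmd12. CCAAT was in 37.4% and 37.5%. CCGGAAGT, an ETS factor site, was in 3.89% of all windows and 21.9% of those of proteasome genes, for Psma6, Psmc1, Psmc2, Psmd6, Psmd12 and Psmd13. The interferon-stimulated response element, searched as GAAA, any 2 bases and GAAA, was in 3.44% and 9.38%, for Psmb3, Psmd4 and Psmd9. A match is a run of letters and no evidence of binding. Of the 6 genes with CCGGAAGT, Psma6, Psmc1, Psmd6 and Psmd13 fell in liver at 18 h and Psmc2 and Psmd12 did not pass. Among all 35 proteasome genes tested, with or without the motif, 19 fell, and a link between motif and change was not tested.

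By the brightest probe set of each gene, the liver excess of Psmb8 and Psmb9 held in both preservations and at each time. Psmb8 measured 7.19, 7.37 and 6.43 in FFPE liver against 4.75, 4.69 and 4.92 in FFPE brain at 0, 3 and 18 h, and 8.60, 8.45 and 7.72 in FF liver against 5.41, 5.32 and 5.51 in FF brain. Psmb9 measured 7.92, 7.65 and 6.35 in FFPE liver against 4.58, 4.60 and 4.48 in FFPE brain, and 7.70, 7.78 and 7.49 in FF liver against 4.34, 4.76 and 4.64 in FF brain. By these probe sets every liver array exceeded every brain array for both genes. The other probe sets gave smaller gaps. A second one of Psmb9 read 6.08, 6.30 and 6.08 in FFPE liver against 5.92, 5.98 and 6.04 in FFPE brain. In FF tissue it read 6.09, 6.10 and 5.93 in liver against 4.62, 4.52 and 5.52 in brain. The third, at 4.17 to 4.32 in FF liver and 4.10 to 4.32 in FF brain, overlapped there. The other one of Psmb8 read 3.77 to 3.94 in FFPE liver and 3.56 to 3.77 in FFPE brain. In FF tissue it read 4.02 to 4.62 against 3.36 to 3.42. By the brightest probe sets, Psmb9 in brain and Psmb8 in FFPE brain lay at or near the array medians of 4.67 to 4.88. The files hold no detection calls, so whether the genes were above background there is not known, and the sizes of these differences rest on brain readings at that level. Psmb10 did not share the liver excess in FF tissue. It measured 7.64, 7.65 and 7.74 in FFPE liver against 6.38, 6.22 and 6.39 in FFPE brain, and 7.75, 7.87 and 7.94 in FF liver against 7.75, 7.72 and 7.75 in FF brain. Its liver excess was 1.35 in FFPE tissue. Psme1 and Psme2, subunits of the interferon-inducible activator that caps the core particle, were also higher in liver than in brain in FF tissue (1.60 and 1.53). So were all 6 antigen processing genes tested, among them the MHC class I genes H2-K1 (3.0) and H2-D1 (2.95). Of the markers of other cells, 5 of 5 Kupffer cell genes and 5 of 5 sinusoidal endothelium genes were higher in FF liver, while 7 of 9 microglia and macrophage genes were higher in FF brain. These counts, and that of the antigen processing genes, stand against 36.5% of all genes tested that were higher in FF liver. A further 37.5% were higher in FF brain. The part of these cells in the result was not tested.

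**Figure D3:**
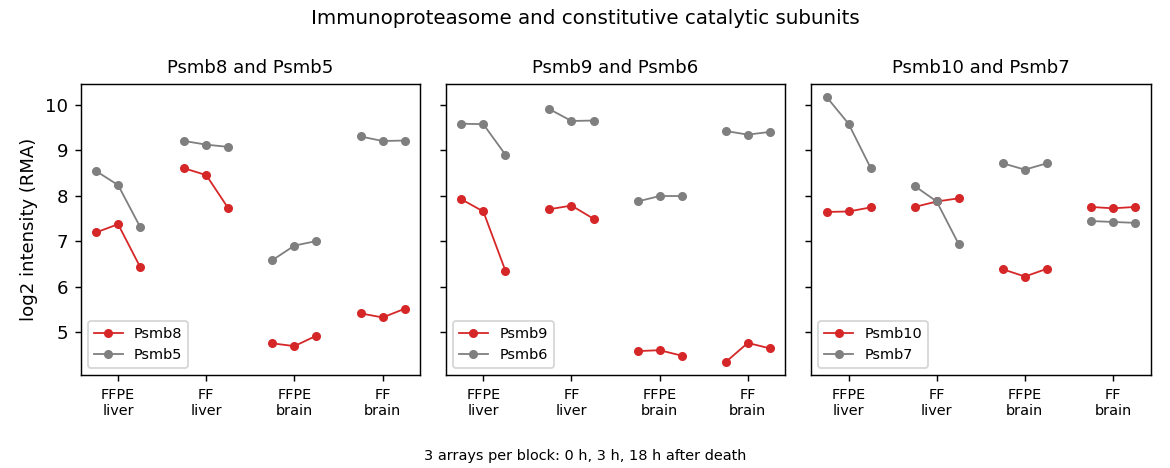
Each panel pairs an inducible catalytic subunit (red) with its constitutive counterpart (grey), and the vertical axis gives the log2 intensity, 1 point per array, with the arrays at 0, 3 and 18 h joined within each tissue and preservation. Levels are read across arrays within a gene, not between the genes of a panel. By the brightest probe sets, shown here, Psmb8 and Psmb9 are higher in all 6 liver arrays than in any brain array. Psmb7 declines in both liver lines, to 8.61 in FFPE liver and 6.93 in FF liver at 18 h.

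Outside the inducible subunits, FF liver and FF brain differed in both directions. In FF tissue 9 of the 35 genes were higher in liver, against 36.5% of all genes tested, and 6 were lower, against 37.5%, with a median of 0.09. Both counts were under the share of all genes, so proteasome genes passed less often here than genes at large. Besides Psmb8 and Psmb9, the genes higher in FF liver were Psmd9 (0.99), Psmb3 (0.72), Psma4 (0.67), Psmd11 (0.49), Psmd12 (0.41), Psmd8 (0.39) and Psmb6 (0.34). Those lower were the deubiquitinase Psmd14 (-1.0), the ATPases Psmc5 (-0.62), Psmc1 (-0.42) and Psmc3 (-0.34), and the lid subunits Psmd7 (-0.61) and Psmd13 (-0.36). Psmd14 measured 8.86, 8.70 and 8.17 in FF liver at 0, 3 and 18 h against 9.51, 9.68 and 9.53 in FF brain, with no overlap. Of the ATPases, 3 of 5 were lower in liver and 0 higher, whereas of the alpha subunits 1 of 7 was higher and 0 lower. The difference between these classes was not tested. Without the FF brain 0 h array 7 were higher and 4 lower, with Psmb6, Psmc3, Psmd8 and Psmd13 no longer past the threshold. Quantile normalization gave 13 higher and 5 lower, against 5389 higher and 4122 lower of all 13073 genes tested in that setting.

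In FFPE tissue the same comparison looked different. There 30 of the 35 genes were higher in liver, against 34.5% of all genes tested, and 1 was lower, the ATPase Psmc5 (-0.46), against 29%. The median was 1.10, and that of all genes 0.04. Psmb9 (2.75) and Psmb8 (2.21) were again the largest as measured, against brain readings at or below the array medians except 4.92 for Psmb8 at 18 h. They were followed by Psmd8 (1.75), Psmb1 (1.65) and Psma1 (1.56). Psma1 measured 8.30, 8.21 and 7.27 in FFPE liver against 6.29, 6.32 and 6.48 in FFPE brain, with no overlap. The same gene measured 9.58, 9.31 and 8.71 in FF liver against 9.17, 9.18 and 8.99 in FF brain, where the tissues overlapped. Psmc1, Psmd3, Psmd13 and Psmd14 did not pass in FFPE tissue. The difference of Psmc5 did not pass when any of 3 FFPE arrays was left out, those of liver at 18 h (adjusted p = 0.231) and of brain at 3 h (0.105) and 18 h (0.133).

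**Figure D4:**
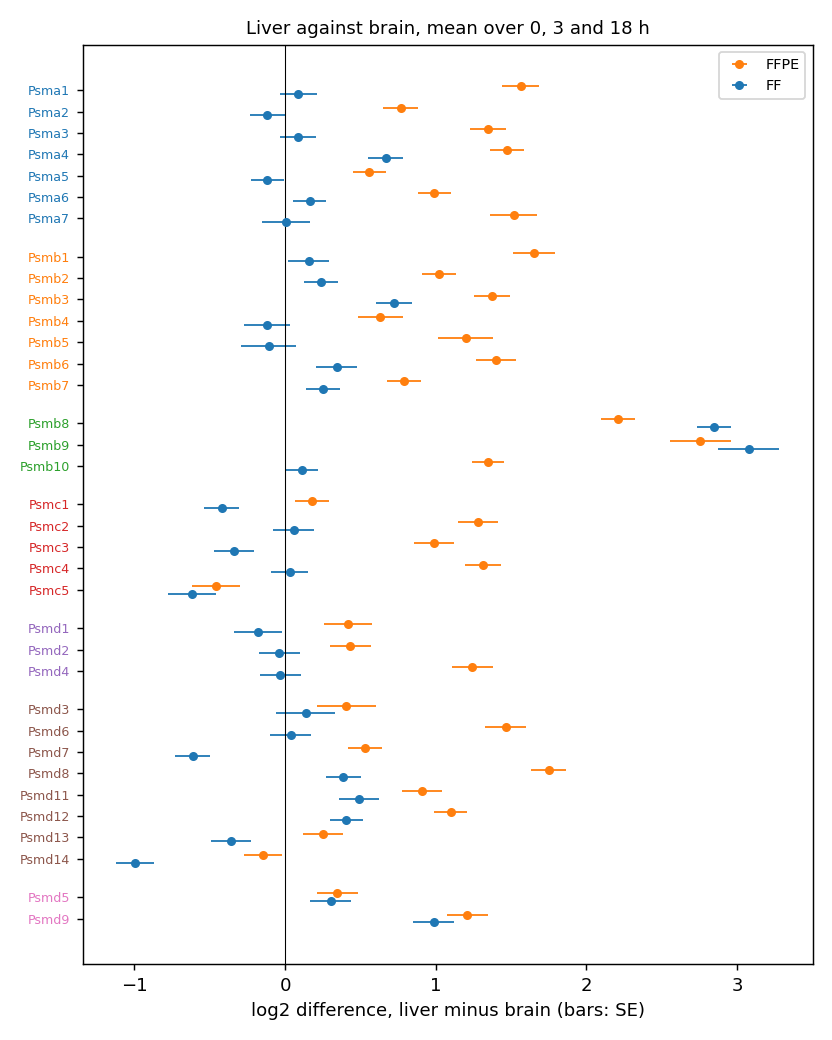
Each row is 1 proteasome gene, and the horizontal axis gives its log2 difference, liver minus brain, over the 3 times, in FFPE and in FF tissue, with SE bars. Most FFPE values lie above 0 (30 of 35 genes past the threshold), while the FF values scatter around 0 (9 higher and 6 lower) apart from Psmb8 and Psmb9.

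Read by preservation, the same values gave a difference between FFPE and FF tissue that was larger in brain. In brain, 29 of the 35 genes were lower in FFPE than in FF tissue, against 53.4% of all genes tested, and 1 was higher, against 28.4%, with a median of -1.24 and of -0.42 for all genes. In liver, 22 were lower, against 43.5%, and 4 higher, against 27.8%, with a median of -0.48 and of -0.17 for all genes. Psma1 had the largest difference in brain, at 6.29, 6.32 and 6.48 in FFPE brain against 9.17, 9.18 and 8.99 in FF brain (-2.75 ± 0.12 SE, adjusted p = 7.5e-10), and differed by -1.27 in liver. It was followed in brain by Psmd6 (-2.62), Psmb5 (-2.41), Psmb1 (-2.32) and Psmd8 (-2.13). In liver the lid subunit Psmd3 came first, at 7.27, 6.91 and 6.74 in FFPE liver against 8.25, 9.05 and 9.0 in FF liver (-1.79), then Psma1, Psmb8 (-1.26), Psmd6 (-1.20) and Psmb5 (-1.10). By class, the lid had 8 of 8 genes lower in FFPE brain and 6 of 8 lower in FFPE liver, while the chaperones Psmd5 and Psmd9 passed in neither tissue. Without the FF brain 0 h array the brain counts were again 29 lower and 1 higher.

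Psmb7 ran the other way in both tissues. It measured 8.71, 8.57 and 8.71 in FFPE brain against 7.44, 7.42 and 7.40 in FF brain (1.24, adjusted p = 3.6e-07), and 10.17, 9.58 and 8.61 in FFPE liver against 8.21, 7.87 and 6.93 in FF liver (1.78, adjusted p = 4.8e-08). The preservations did not overlap in either tissue. In liver Psmb2 (0.73), Psma7 (0.41) and Psmc1 (0.39) were also higher in FFPE. Psma7 did not pass without an FFPE or FF array of 0 h (adjusted p = 0.252) or of 3 h (0.175), nor with array medians set equal (0.171), and Psmc1 did not pass without an array of 0 h (0.0539) or with array medians set equal (0.0844). Quantile normalization gave 22 lower and 5 higher in brain and 12 lower and 7 higher in liver, with medians of -0.56 in brain and -0.14 in liver, against -0.10 and -0.08 for all genes. Of all 13073 genes tested in that setting, 5544 were lower and 4600 higher in brain, and 4926 lower and 3993 higher in liver. In liver the proteasome genes were thus not lower more often than all genes in that setting. Probe sets of 1 gene could lie far apart: in brain the 2 probe sets of Psmb3 gave -1.09 and -3.70, and those of Psmd4 gave -2.12, -2.19 and 1.69.

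**Figure D5:**
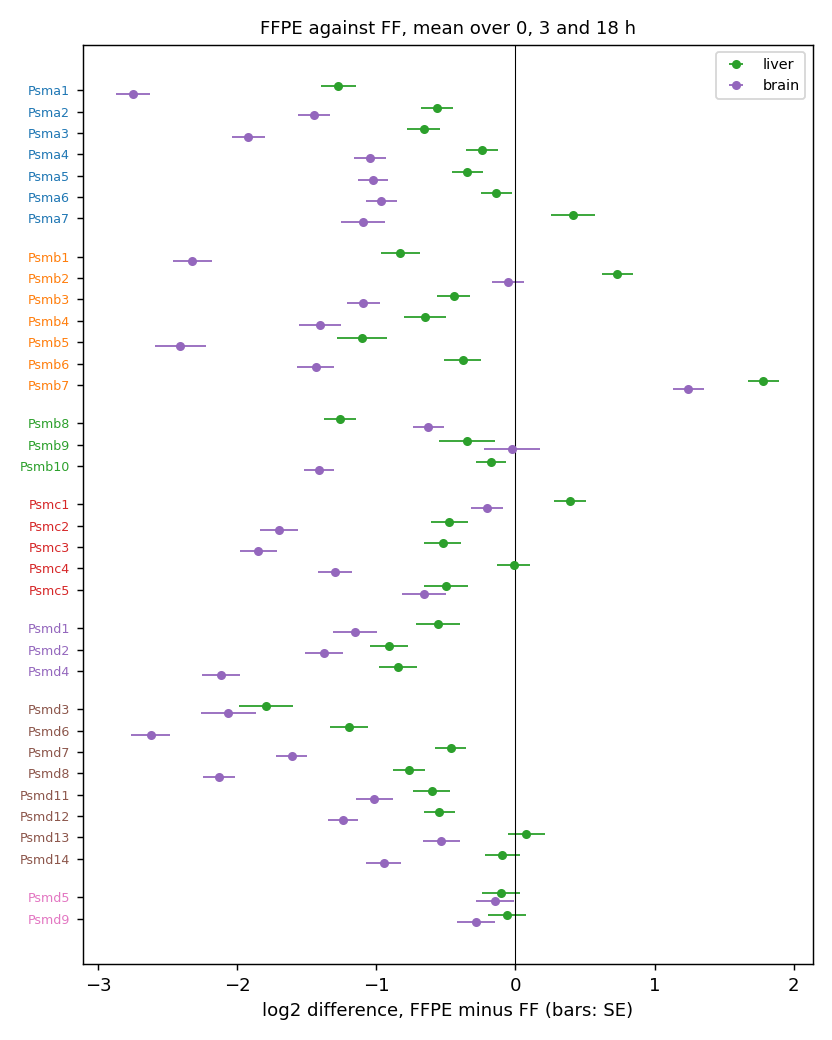
Each row is 1 proteasome gene, and the horizontal axis gives its log2 difference, FFPE minus FF, over the 3 times in liver and in brain, with SE bars. Most brain points lie further below 0 than the liver points, and Psmb7 is the 1 gene past the threshold above 0 in both, at 1.78 in liver and 1.24 in brain.

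The FFPE minus FF difference itself differed between the tissues in 28 of the 35 genes. It was higher in liver than in brain, which here mostly means less far below 0, in 27 genes, against 36.4% of all genes tested, and lower in 1, against 18.4%, with a median of 0.81 and of 0.18 for all genes. The largest were Psma7 (1.51), Psmb1 (1.5), Psma1 (1.48) and Psmd6 (1.43). Psmb8 was the 1 gene past the threshold with the opposite sign (-0.63, adjusted p = 0.00513). It was lower in FFPE by 1.26 in liver and by 0.63 in brain, where its FFPE readings lay near the array medians. After quantile normalization it did not pass (-0.11, adjusted p = 0.618). Psmb9, Psmc5, Psmd2, Psmd3, Psmd5, Psmd9 and Psmd11 did not pass. Without the FF brain 0 h array 26 were higher and 1 lower. After quantile normalization 16 were higher and 0 lower, against 3092 higher and 2898 lower of all 13073 genes tested in that setting.

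Genes that work with the proteasome were read beside it in liver at 18 h against 0 h. Counts here and in the next lists stand against 10.9% of all genes tested that fell and 3.61% that rose. Of 9 assembly and proteasome-bound proteins, 5 fell and 0 rose, with a median of -0.58. Usp14, the deubiquitinase bound to the base, fell by 1.61 (-1.87 in FFPE and -1.34 in FF), Uchl5, the other bound deubiquitinase, by 0.98, and the alpha-ring chaperones Psmg2 by 0.98 and Psmg1 by 0.60. Of the 4 activator and inhibitor genes, Psme2 fell by 0.78 (adjusted p = 0.0187) and the other 3 did not pass. Of 6 ubiquitin genes and shuttle factors, Ubqln2 (-1.11) and Ubqln1 (-0.70) fell. Nfe2l1 encodes NRF1, the transcription factor that raises proteasome genes when the proteasome is impaired. It stood at 0.22 (adjusted p = 0.477), while of the same list of 6 Nfe2l2 (-0.83) and Ngly1 (-0.76), the enzyme that helps to activate NRF1, fell.

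Other large complexes gave a scale for these counts. Of 9 genes of the COP9 signalosome, which resembles the lid in structure, 3 fell with a median of -0.46, led by Cops6 (-1.43) and Cops5 (-0.89). Of 9 chaperonin genes 2 fell with a median of -0.13, and of 63 cytosolic ribosomal protein genes 15 fell with a median of -0.22, with 0 higher in any of these 3 lists. Among 6 antigen processing genes, Erap1, which trims peptides after the proteasome, fell by 0.95, and Nlrc5, the transactivator of MHC class I genes, rose by 0.90. Hepatocyte markers had a median of -0.10 with 0 of 10 past the threshold. In brain at 18 h, 0 genes of the proteasome-related lists and complexes named here passed.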

How the data were processed

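The authors deposited 1 log2 intensity for each probe set on each array. Per the submitters' processing notes these came from RMA, run in Affymetrix Expression Console. Versions are not given, and neither is whether 1 RMA run covered the 12 arrays, in the sources used here. The median log2 intensity of an array lay between 4.8 and 4.88 for FFPE and between 4.65 and 4.68 for FF tissue.

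Of 45141 probe sets, 104 were controls, 28898 had 1 gene, 551 several and 15588 none, by the platform annotation with symbols updated through RefSeq gene IDs. A gene was tested if it reached the median of its array on 3 or more arrays, which kept 13074 of 17097. The limma package (3.58.1, R 4.3.3) fitted 8 coefficients, namely 4 tissue-by-preservation means and, per tissue, the changes at 3 h and 18 h, which left 4 residual degrees of freedom. Tests were two-sided, p-values were adjusted by Benjamini-Hochberg across the 13074 genes, and the threshold was 0.05. A time effect is thus what the FFPE and FF arrays of a tissue share. With 1 array per condition, precision is limited by the number of arrays.

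The members, lists and rules were chosen with earlier results of these data known. Any member could be named, with full statistics for up to 4 per class and comparison, and up to 4 genes past the threshold from each other list. On simulated data for liver at 18 h with 200 changed among 13074 genes, the fit recovered 29% of 1.5-fold, 98% of 2-fold and 100% of 4-fold changes. In the same runs it also called 7, 19 and 10 unchanged genes. The simulated noise was independent, with the same spread per gene on every array. The real arrays need not share that spread, so recovery in these data may be lower. Alternatives were no filter, quantile normalization, centring on array medians, the mean of a gene's probe sets, leaving out x_at probe sets, every probe set on its own, a robust spread, the tissue's arrays alone, and each array left out.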

Additional observations from a re-analysis of the deposited data

Results flagged for a closer look

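The change at 18 h differed between liver and brain in 12 proteasome genes by the interaction term of the limma fit, each lower in liver. The count was 4 after quantile normalization and 0 to 22 with 1 array left out. The liver minus brain differences in change, on the log2 scale, were -1.40 for Psmb7, -1.22 for Psmd8, -1.215 for Psmb4, -1.205 for Psmd7, -1.19 for Psma6, -1.19 for Psmd9 and -1.185 for Psmd13. They were -1.13 for Psmd5, -1.06 for Psma5, -0.955 for Psma1, -0.955 for Psmb8 and -0.86 for Psmd14.

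The FFPE minus FF difference differed between liver and brain in 28 genes by the same kind of term. The 4 largest above 0 were 1.51 for Psma7, 1.4967 for Psmb1, 1.4767 for Psma1 and 1.4267 for Psmd6, and the 1 below 0 was -0.6333 for Psmb8, whose FFPE brain readings lay near the array medians and which did not pass after quantile normalization (-0.11). The labelling kit differed with the preservation, so the 2 cannot be told apart.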

How the results depend on the processing

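In liver at 18 h against 0 h, 14 to 26 of the proteasome genes passed with 1 array left out, 14 after quantile normalization, 14 with the liver arrays alone, 16 with the mean of a gene's probe sets and 18 with no filter, and all were lower except 1 higher gene without the FFPE liver 0 h array. At 18 h against 3 h in liver the count was 8 with the liver arrays alone and 4 to 21 with 1 array left out. For the liver minus brain difference in the 18 h change it was 4 after quantile normalization and 0 to 22 with 1 array left out. For the liver minus brain difference in FFPE minus FF it was 16 after quantile normalization. The cause of these moves was not tested. Among genes past the threshold in at least 1 of the fits compared, values that changed sign were, with the mean of a gene's probe sets, Psmd9 at 18 h against 3 h in liver (0.0933), Psmb9 in FFPE minus FF in brain (0.66) and Psma1 in liver minus brain in FF tissue (-0.30). After quantile normalization they were Psmb2 (0.82), Psmc1 (0.59), Psmd13 (0.39) and Psmd5 (0.74) in FFPE minus FF in brain, Psma5 (0.0439), Psmb10 (0.30) and Psmd14 (0.29) in FFPE minus FF in liver, and Psmb7 (-0.10) in the tissue difference of FFPE minus FF. Over all settings, the values of genes past the threshold kept their direction and their side of it 2958 times, lost it 277 times and changed sign 4 times. Of the genes not past it, 84 values passed in the same direction and 7 with the opposite sign. Sign changes of values past the threshold in neither fit are not counted here. In brain at 3 h and at 18 h, 0 genes passed in all settings run. No paired analysis was possible because each condition had 1 array and the labels give no replicate numbers.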
